A study of Rattus norvegicus with 23 samples.

Results

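The related miRNAs miR-99a-5p, miR-99b-5p, miR-100-5p, miR-125a-5p and miR-125b-5p, were followed in the small RNA of rat sperm after ozone exposure. They were taken by name from the deposited miRNA table and are 5 of its 425 rows. The sperm came from the cauda epididymis, where mature sperm are stored, of 23 male Long-Evans rats. Filtered air was breathed by 7 rats (the design text names 8), ozone at 0.4 ppm by 8 and ozone at 0.8 ppm by 8. Rats were exposed for 4 h at a time, 3 times in week 1 and 2 times in week 2, at measured averages of 0.401 and 0.798 ppm. No genotype, other treatment or age separates the groups in the labels, and each library is from 1 rat.

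A miRNA is a short RNA that guides silencing proteins to messenger RNAs, mostly by pairing through its seed, the stretch near its 5′ end. The miR-99 and miR-100 group is widely studied for repression of mTOR, a growth-controlling kinase. The miR-125 group is the mammalian counterpart of the nematode lin-4 RNA and is known for repression of LIN28, the protein that blocks let-7 maturation. Mature sperm are thought to gain part of their miRNA from vesicles shed by the epididymal epithelium.

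The mature sequences divide the family into its 2 seed groups. They are shown 5′ to 3′ from RefSeq (build GRCr8), with the seed, bases 2 to 8, in capitals. RefSeq sequences were matched for 4 of the 5 members. miR-351-5p is printed with them because it was the only other miRNA among the 396 rows with a RefSeq sequence to hold the miR-125 seed.
miR-99b-5p: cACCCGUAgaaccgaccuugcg
miR-100-5p: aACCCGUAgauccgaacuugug
miR-125a-5p: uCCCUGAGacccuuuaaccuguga
miR-125b-5p: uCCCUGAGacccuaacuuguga
miR-351-5p: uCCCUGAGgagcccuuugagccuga
Outside the seed, miR-99b-5p and miR-100-5p differ at 4 of 22 positions, written with the miR-99b-5p base first and counted from 1 at the 5′ end: C1A, A11U, C16A and C21U. Lined up from the 5′ end without gaps, miR-125a-5p and miR-125b-5p differ at 7 of 22 positions (U14A, U15A, A16C, A17U, C18U, C19G and U22A). These are not separate substitutions, because miR-125a-5p has 24 bases and miR-125b-5p 22. The additional uu of miR-125a-5p, after acccu, puts the bases behind it out of step. With a gap there, the ends read aaccuguga in miR-125a-5p and aacuuguga in miR-125b-5p. Lined up in the same ungapped way, miR-351-5p has 14 differences from miR-125a-5p over 24 positions. That count is also raised by a shift, since both hold cccuuu and then ccug beyond the seed, at different positions. In RefSeq the 6 genes of the family lie in 3 clusters, each holding a miR-99 or miR-100 gene, a let-7 gene and a miR-125 gene. Mir99b, Mirlet7e and Mir125a are on chromosome 1, Mir100, Mirlet7a-2 and Mir125b1 on chromosome 8, and Mir99a, Mirlet7c1 and Mir125b2 on chromosome 11. The mature miR-125b-5p can thus come from 2 of these clusters.

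Between 213839 and 1286613 miRNA reads were recovered per library (median 628271). The germ cell list (miR-34 and miR-449 miRNAs, 5 of 6 in the table) summed to between 144827 and 349813 normalised units per library, above each of the other marker lists. The epithelial list (the miR-200 family with miR-203a-3p and miR-205, 7 of 7) reached 15971.6 at most. The highest sums were 47077.5 for the leukocyte list (7 of 7) and 79042.7 for the muscle and stroma list (6 of 8). They were 1065.56 for the erythroid list (3 of 4) and 210.1 for the endothelial list (2 of 2). The RNA integrity numbers, given only as 2 to 4 over all samples, cannot be set beside single libraries. In whole samples such as these, fewer cells of a type and less RNA per cell cannot be told apart.

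One split of the libraries has to be described before the groups are compared. Library labels end in an S number from 1 to 12, and 11 of these numbers are each held by 2 libraries. In the order of the miRNA table's header, the first 11 columns hold 11 different numbers and the last 12 columns hold 12, so that all 11 repeated numbers are divided between the first and the second set of columns. The first set holds 2 air, 4 0.4 ppm and 5 0.8 ppm libraries, and the second 5, 4 and 3. Median reads were alike, 628271 and 620170. Neither what the numbers mean nor why the columns have this order could be found in the labels or file headers. If the order had been made from the values themselves, a comparison of the sets would be circular. The split was noticed after the data were seen, and the members' fold changes are given with it as a covariate too. Those of other miRNAs, let-7 and miR-351-5p among them, are given without it.

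The 5 miRNAs were measured in all 23 libraries, over a range of levels that was ordered almost identically in each rat. Values are the deposited normalised read signal, in which 1 read was worth between 0.470 and 2.53 units depending on the library. The members printed above are alike in length, 22 to 24 bases, and miR-99a-5p is not among them. Ligation during library preparation can favour some sequences, so members are compared with each other only as read signal. miR-99b-5p was the most abundant, between 610.1 and 3660.15 units with a median of 1195. miR-125a-5p followed at 153 to 615 (median 245), and miR-99a-5p at 122 to 334 (median 189.8). miR-100-5p, between 64.0 and 293 (median 115), and miR-125b-5p, between 18.9 and 81.2 (median 34.8), were the scarcest.

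This order rarely broke within a rat. miR-99b-5p exceeded miR-125a-5p in 23 of 23 libraries, by 5.06-fold on average (geometric mean). miR-125a-5p exceeded miR-99a-5p in 22 of 23 libraries, by 1.31-fold, and miR-99a-5p exceeded miR-100-5p in 22 of 23, by 1.65-fold. miR-100-5p was above miR-125b-5p in 23 of 23, by 3.17-fold. The adjacent levels of miR-125a-5p and miR-99a-5p are therefore the closest in this order, and their ranges over rats overlap widely. Each member rests on at least 13 reads per library: miR-99b-5p had a median of 1285 reads, miR-125a-5p 246, miR-99a-5p 187, miR-100-5p 113 and miR-125b-5p 36.

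Together the family held 0.343% ± 0.146 (SD, n = 23) of the miRNA table, from 0.183% to 0.726%. miR-99b-5p made up 67.7% ± 6.31 of that sum (SD, n = 23), between 53.8% and 78.1%. The let-7 partners encoded beside the family were far more abundant: let-7a-5p had a median of 10389 units and let-7c-5p 10044, against 115 for miR-100-5p and 189.8 for miR-99a-5p. miR-99b-5p, in contrast, lay above its own cluster partner let-7e-5p in each of the 23 libraries (lowest log2 ratio 0.03), by a mean log2 ratio of 1.18 ± 0.59 in air (SD, n = 7). let-7 miRNAs differ from one another by few bases, and let-7a-5p can come from more than 1 cluster, so these ratios do not compare single genes.

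Spread between rats was uneven across the family. Among 182 miRNAs above 0 in every library and with a mean of at least 20 units, the median SD of log2(value + 1) was 0.48. miR-99b-5p had an SD of 0.69, and 22 of the 182 miRNAs varied more. miR-99a-5p was the steadiest at 0.36, with 138 of 182 varying more, and miR-100-5p (0.59), miR-125b-5p (0.52) and miR-125a-5p (0.49) lay between. The highest library exceeded the lowest by 6.0-fold for miR-99b-5p and by 2.74-fold for miR-99a-5p.

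**Figure D1:**
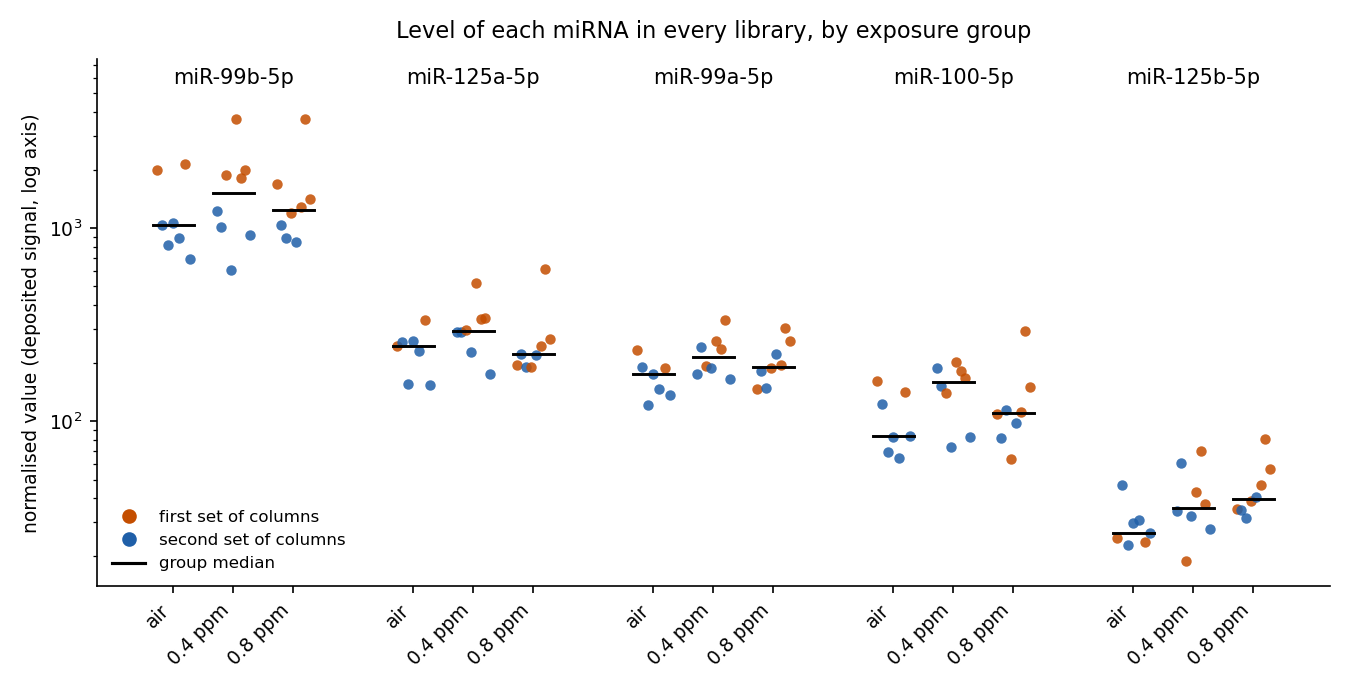
Each point is 1 rat's normalised value (log axis) for a family member in the air, 0.4 ppm and 0.8 ppm groups, bars are group medians and colours mark the 2 sets of table columns. The groups overlap for each of the 5 miRNAs, while miR-99b-5p splits by column set, with 10 of 11 first-set libraries above all of the second set.

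Whether ozone altered the family was asked in 3 pairwise comparisons and a linear trend with ppm. No member passed in any of them: limma on log2(value + 1), with Benjamini-Hochberg adjustment over 407 tested miRNAs at 0.05, called 0 of 5 members. The background was the same, 0% of the 407 tested miRNAs in each comparison. At an unadjusted p under 0.05, limma counted 22 miRNAs for 0.4 ppm against air, 9 for 0.8 ppm against air, 15 for 0.8 against 0.4 ppm and 9 for the trend. edgeR on the recovered reads (26, 15, 18 and 15 unadjusted) and DESeq2 (31, 18, 25 and 20 unadjusted) called 0 miRNAs as well. Fold changes below are on the log2(value + 1) scale with their standard errors, and both ozone groups share the 7 air libraries.

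Within the miR-99 and miR-100 group, all 3 members had positive fold changes at 0.4 ppm that did not pass. miR-100-5p ran from 64.7 to 162 in air with a median of 84.2, from 74.1 to 203 at 0.4 ppm (median 160.4) and from 64.0 to 293 at 0.8 ppm (median 110.3). Of the 8 libraries at 0.4 ppm, 4 lay above every air library, and the others fell among them. The fold change was 0.52 ± 0.28 at 0.4 ppm (limma adjusted p = 0.784) and 0.23 ± 0.28 at 0.8 ppm (adjusted p = 0.993). They were 0.39 ± 0.25 and 0.03 ± 0.26 with the column set as covariate. Without 0.8 ppm replicate 7 the value at 0.8 ppm was 0.04.

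miR-99a-5p, which shares a cluster with let-7c, ran from 122 to 234 in air (median 175), from 165 to 334 at 0.4 ppm (median 215) and from 147 to 304 at 0.8 ppm (median 192). At 0.4 ppm, 4 of 8 libraries lay above every air library, and 3 air libraries were below all of the 0.4 ppm libraries. The rest overlapped. Its fold changes were 0.39 ± 0.21 at 0.4 ppm (limma adjusted p = 0.784) and 0.26 ± 0.21 at 0.8 ppm (adjusted p = 0.993). Fitted with the column set as covariate, the values were 0.32 ± 0.19 and 0.14 ± 0.20. The 95% interval at 0.4 ppm ran from -0.03 to 0.81.

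For miR-99b-5p the medians were 1039.8 in air (692 to 2139), 1525 at 0.4 ppm (610.1 to 3660.15) and 1237 at 0.8 ppm (846 to 3655). In each ozone group 1 rat lay above the highest air rat, and at 0.4 ppm 1 rat lay below the lowest. The remaining ozone rats were within the air range. The fold changes were 0.34 ± 0.32 at 0.4 ppm and 0.24 ± 0.32 at 0.8 ppm (limma adjusted p = 0.883 and 0.993). With the column set as covariate they became 0.10 ± 0.22 and -0.14 ± 0.23. Single rats moved both values: that at 0.4 ppm was 0.14 without 0.4 ppm replicate 5 and 0.51 without 0.4 ppm replicate 4, and that at 0.8 ppm was 0.04 without 0.8 ppm replicate 7.

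In the miR-125 group, miR-125a-5p ran from 153 to 334 in air (median 245), from 175 to 519.6 at 0.4 ppm (median 294) and from 190.5 to 615 at 0.8 ppm (median 222). The groups overlapped, and 1 library at 0.8 ppm stood far above its group. The fold changes were 0.39 ± 0.25 and 0.13 ± 0.25 (limma adjusted p = 0.802 and 0.993). With the column set as covariate they were 0.29 ± 0.23 and -0.03 ± 0.23, and the value at 0.8 ppm was -0.05 without 0.8 ppm replicate 7.

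miR-125b-5p, the scarcest member, was the only member whose median was higher at 0.4 ppm than in air and higher again at 0.8 ppm. It ran from 23.0 to 47.0 in air with a median of 26.5, from 18.9 to 70.0 at 0.4 ppm (median 35.8) and from 31.5 to 81.2 at 0.8 ppm (median 39.8). All 8 libraries at 0.8 ppm were above the air median, and 6 of 7 air libraries were below all of them. The exception was air replicate 2, at 47.0. The fold change was 0.39 ± 0.26 at 0.4 ppm and 0.59 ± 0.26 at 0.8 ppm, the latter with an unadjusted p of 0.0273 and a limma adjusted p of 0.993. Its 95% interval ran from 0.07 to 1.12 before adjustment. With the column set as covariate the values were 0.37 ± 0.26 at 0.4 ppm and 0.56 ± 0.26 at 0.8 ppm. The value at 0.8 ppm was 1.0 ± 0.46 within the first set, which holds 2 air libraries, and 0.21 ± 0.31 within the second.

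**Figure D2:**
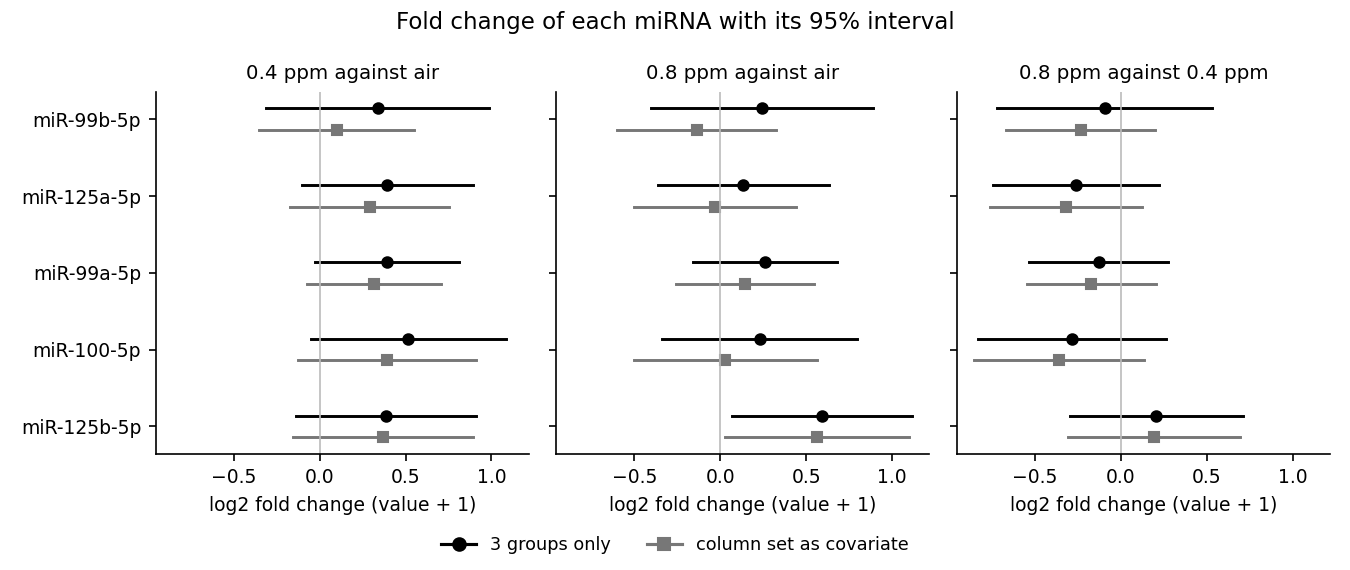
Points are log2 fold changes (value + 1) of each member in 3 comparisons and bars their 95% intervals, from the 3-group limma model (circles) and with the column set as covariate (squares). The miR-125b-5p interval for 0.8 ppm against air, 0.07 to 1.12, is the only one of the 15 in the 3-group model to lie clear of 0, and it did not pass adjustment.

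Across the family, fold changes were above 0 for 5 of 5 members at 0.4 ppm (median 0.39) and 5 of 5 at 0.8 ppm (median 0.24). Over all 407 tested miRNAs, 48.2% and 51.1% were above 0, with medians of -0.02 and 0.01. With the column set as covariate the count at 0.8 ppm was 3 of 5, and at 0.4 ppm 5 of 5. Between 0.8 and 0.4 ppm, 1 of 5 members had a positive value, miR-125b-5p (0.21), against 53.1% of all miRNAs, and the member median was -0.13. The trend gave 5 of 5 positive against 51.6% of all miRNAs. The members varied together across rats, so they are not independent counts. Of the 7 miRNAs of the epithelial list, 6 also had positive values at 0.4 ppm, with a median of 0.45. At an unadjusted limma p under 0.05 there were 3 of the 7, and 0 passed after adjustment. Their part in the family's values was not tested.

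Shares of the miRNA table do not use the table's scaling, and none passed either. In air the 5 members together held 0.281% ± 0.104 (SD, n = 7). At 0.4 ppm they held 0.399% ± 0.152 and at 0.8 ppm 0.342% ± 0.165 (SD, n = 8 each). Two-sided exact permutation gave p = 0.106 for 0.4 ppm and 0.478 for 0.8 ppm against air, with adjusted values over 8 shares of 0.156 and 0.602. Permuted within column sets, the difference of 0.118 percentage points at 0.4 ppm became 0.0714 (adjusted p = 0.135) and that of 0.0610 at 0.8 ppm became 0.00173 (adjusted p = 0.980). The smallest adjusted p among the shares was 0.0725, reached at 0.4 ppm by miR-99a-5p, miR-125a-5p and the miR-125 sum. miR-99a-5p held 0.0391% ± 0.0110 at 0.4 ppm and 0.0272% ± 0.00601 in air (exact permutation p = 0.0236). Without 0.4 ppm replicate 8 the shares of miR-99a-5p, miR-100-5p, miR-125a-5p and the miR-125 sum passed 0.05. Without 0.4 ppm replicate 3 those of miR-99a-5p, miR-125a-5p, miR-125b-5p and the miR-125 sum did. The germ cell list, the largest of the marker lists, had a median of 199908 units at 0.4 ppm and 270932 in air. With that list left out of the total, the miR-99a-5p share was 0.0611% at 0.4 ppm and 0.0476% in air (exact permutation p = 0.117, adjusted 0.233), and the adjusted p of miR-125a-5p and of the miR-125 sum was 0.226.

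Ratios were taken within each library as differences of log2(value + 1), so the table's scaling enters only through the added 1, which weighs most on miR-125b-5p. Of them, 6 compare members with each other and 3 compare a member with let-7. Of 9 ratios, 0 passed in each of the 3 comparisons by two-sided exact permutation with adjustment over the 9. The miR-125a-5p to miR-125b-5p log2 ratio came closest: 2.94 ± 0.47 in the 7 air libraries, 2.95 ± 0.59 in the 8 at 0.4 ppm and 2.48 ± 0.22 in the 8 at 0.8 ppm (mean ± SD). The difference of -0.46 between 0.8 ppm and air had an exact permutation p of 0.0213, adjusted 0.192. Within column sets it was -0.56 (p = 0.00850, adjusted 0.0765, permutation within sets). It passed without air replicate 2, at -0.55 with an adjusted p of 0.0435, as did miR-99a-5p to miR-125b-5p at -0.42. Over 27 alternatives the first of these differences ran from -0.56 to -0.32, with adjusted p from 0.0435 to 0.547. The exact tests could reach p = 0.0001554 at these group sizes.

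Related miRNAs did not pass either. Of 6 let-7 cluster partners, 0 passed in either comparison with air, and 3 had positive values at 0.4 ppm and 1 at 0.8 ppm. let-7e-5p, the partner of miR-99b-5p and miR-125a-5p, had a fold change of 0.36 ± 0.29 at 0.4 ppm and -0.01 ± 0.29 at 0.8 ppm. miR-351-5p, with the miR-125 seed, gave 0.47 ± 0.28 and -0.01 ± 0.28. Of 4 miR-10 miRNAs, encoded in the Hox clusters and close relatives of miR-100 in sequence, 0 passed. miR-10a-5p gave 0.61 ± 0.36 at 0.4 ppm and 0.09 ± 0.36 at 0.8 ppm.

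The other arms of the family's hairpins separated the miR-125b genes from the rest. A hairpin yields a 5p and a 3p strand, of which usually one accumulates. For miR-125a the 5p strand exceeded the 3p by 28.4-fold on average (10.98 to 59.9 over 23 libraries), and the 3p strands of miR-99a and miR-99b had means between 1.21 and 3.06 units in either column set. miR-125b-2-3p, by contrast, exceeded miR-125b-5p in 23 of 23 libraries, by 8.20-fold (4.42 to 18.0), although miR-125b-5p can be made from both miR-125b genes. miR-125b-1-3p exceeded miR-125b-5p in 2 of 23 libraries and averaged 0.545 of its level. The 3p strands are shown because their tails are nearly alike while their seeds, in capitals, are not.
miR-125b-2-3p: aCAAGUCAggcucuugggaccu
miR-125b-1-3p: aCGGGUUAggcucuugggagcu
Neither 3p strand passed in the ozone comparisons: miR-125b-2-3p had fold changes of 0.19 ± 0.24 and -0.16 ± 0.24, and miR-125b-1-3p 0.06 ± 0.28 and -0.17 ± 0.28, at 0.4 and 0.8 ppm. Of the 5 other arms in the table, 0 passed.

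The level of miR-125b-5p is itself uncertain because of how the table treats opposite strands. Mir3588 is annotated on the opposite strand of Mir125b2, and miR-3588 is the whole reverse complement of miR-125b-5p. The table holds 7 such pairs of whole reverse complements, and in 6 of them both rows carry equal values in all 23 libraries. One of the 6 is let-7a-5p with miR-3596a. Their rows thus hold the same reads irrespective of strand. In the seventh pair the values differ in all 23 libraries, with medians of 34.8 for miR-125b-5p and 37.8 for miR-3588. How reads were divided there is not given in the labels or file headers. miR-3588 had fold changes of 0.60 ± 0.25 at 0.4 ppm and 0.61 ± 0.25 at 0.8 ppm (limma adjusted p = 0.784 and 0.993). Summed, the pair had a median of 72.1 units and fold changes of 0.51 ± 0.23 and 0.61 ± 0.23, with unadjusted p of 0.0360 and 0.0130 and limma adjusted p of 0.782 and 0.993. The 8.20-fold excess of miR-125b-2-3p is over miR-125b-5p alone, without miR-3588.

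The column sets differed where the exposure groups did not pass. In a limma model with the 3 groups as terms, 13 of 407 miRNAs differed between the sets (3.19%), 10 lower in the second set (2.46%) and 3 higher (0.737%). miR-99b-5p was the only member among them, with a mean of 2068 ± 843 in the first set (SD, n = 11) and 922 ± 171 in the second (n = 12). First-set libraries ran from 1195 to 3660.15 and second-set libraries from 610.1 to 1231, so that only their edges overlap. The log2 difference was -1.12 ± 0.18 (limma adjusted p = 1.79e-04), the second smallest p of the table after that of miR-151-5p (-1.89 ± 0.26). It remained past 0.05 in 23 of 23 fits that each left out 1 rat, between -1.17 and -1.03, and was -0.94 without both 0.4 ppm replicate 5 and 0.8 ppm replicate 7. Leaving out single rats moved the table's count from 13 to between 6 and 21, the lowest without 0.4 ppm replicate 4, and edgeR gave 21.

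The other members also had negative values, which did not pass. The log2 differences were -0.59 ± 0.21 for miR-100-5p (limma adjusted p = 0.0992), -0.48 ± 0.19 for miR-125a-5p (0.138), -0.35 ± 0.16 for miR-99a-5p (0.196) and -0.10 ± 0.21 for miR-125b-5p (0.826). miR-100-5p passed in 1 of 23 fits that left out a rat, at -0.67 without 0.8 ppm replicate 4 (limma adjusted p = 0.0466), and the remaining 3 passed in none. Besides miR-151-5p and miR-99b-5p, the smallest p-values belonged to miR-101a-3p (1.14 ± 0.20, higher in the second set), miR-342-3p (-0.93 ± 0.20) and miR-1839-5p (0.72 ± 0.17). miR-10a-5p differed by -0.92 ± 0.23 (adjusted p = 0.0234). let-7e-5p, the neighbour of miR-99b-5p in its cluster, differed by -0.35 ± 0.24 (adjusted p = 0.418).

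The family's share of the table was 0.445% ± 0.146 in the first set and 0.249% ± 0.0556 in the second (permutation within groups, adjusted p = 0.0002667). Most of this lay in miR-99b-5p: its group-adjusted difference was -0.169 percentage points, against -0.195 for all 5 members. The shares of the other members and of the miR-125 sum did not pass (adjusted p from 0.112 to 0.739, same permutation).

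**Figure D3:**
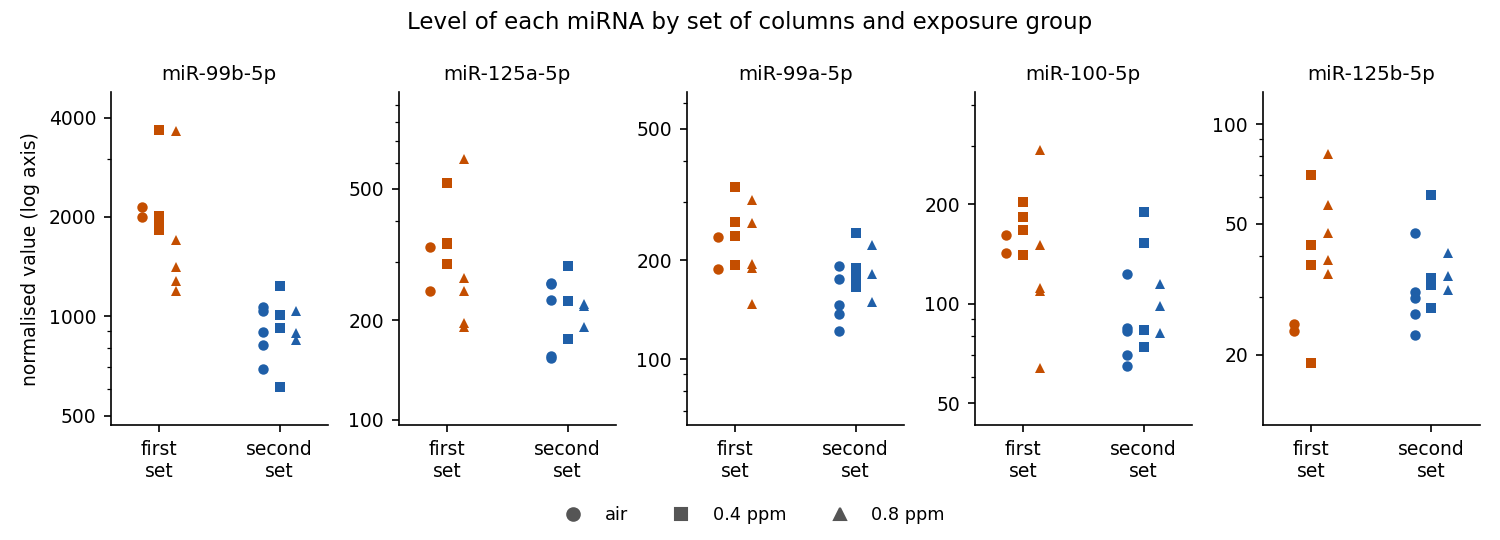
Each panel plots 1 member's normalised value (log axis) in the 11 libraries of the first set of columns and the 12 of the second, and shapes mark the exposure group. For miR-99b-5p 10 of 11 first-set libraries lie above all of the second set, against 2 of 11 for miR-125b-5p.

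The members' proportions also shifted between the sets. The miR-99b-5p to miR-125a-5p log2 ratio was 2.66 ± 0.24 in the first set (SD, n = 11) and 2.05 ± 0.27 in the second (n = 12), a group-adjusted difference of -0.64 (permutation within groups, adjusted p over 9 ratios = 0.00027). The ratio of the summed miR-99 and miR-100 to the summed miR-125 differed by -0.54 (adjusted p = 0.00027), and that of miR-99b-5p to let-7e-5p by -0.77 (adjusted p = 0.0021). The other 6 ratios did not pass. miR-99b-5p, miR-125a-5p and let-7e-5p come from 1 cluster. What made the libraries of the sets differ was not tested.

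The members also varied together across rats. Over all libraries 9 of 10 pairs had a correlation past 0.05 after adjustment over the 10 by Pearson's r and 7 by Spearman's rho. With group and set means taken out, 8 of 10 pairs had a correlation that passed adjustment over the 10 (permutation, 100000 resamples). The median r of the 10 pairs was 0.59, and -0.01 over all 31626 pairs of the 252 miRNAs above 0 in every library. An r of at least 0.51, the lowest among the pairs that passed, was held by 10.3% of all pairs. The closest pair was miR-99b-5p with miR-125a-5p, from 1 cluster, at r = 0.82 and rho = 0.78 (permutation adjusted p = 0.0001). The unadjusted p of this r was the smallest that 100000 resamples can give. For this pair r was 0.64 without the 2 farthest libraries, 0.90 within the first set and 0.60 within the second. miR-100-5p with miR-125a-5p, from different clusters, reached r = 0.73 and rho = 0.64 (permutation adjusted p = 0.000267), and 0.53 without the 2 farthest. miR-99a-5p with miR-125b-5p, which share the chromosome 11 cluster, gave r = 0.61 and rho = 0.70 (permutation adjusted p = 0.00372), and 0.53 without the 2 farthest. miR-100-5p with miR-125b-5p, which share the chromosome 8 cluster, gave r = 0.51 and rho = 0.44 (permutation adjusted p = 0.0161), and 0.40 without the 2 farthest. The pairs that did not pass were miR-99a-5p with miR-99b-5p (r = 0.41) and miR-99b-5p with miR-125b-5p (r = 0.30).

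By the pooled correlation of log2(value + 1) over 23 libraries, among 252 miRNAs above 0 in every library, the rows most like each member were as follows. For miR-125a-5p they were miR-351-5p (0.91), let-7e-5p (0.85) and miR-10a-5p (0.83). For miR-99b-5p they were miR-184 (0.86), miR-10a-5p (0.81) and miR-151-5p (0.81), all 3 of which also differed between the column sets. The last fell to 0.40 once group and set means were taken out. miR-100-5p was most like miR-351-5p (0.78), miR-146a-5p (0.78) and miR-10a-5p (0.75). miR-99a-5p was most like miR-3588 (0.76), miR-146a-5p (0.71) and miR-3553 (0.70), and miR-125b-5p was most like miR-3588 (0.75), miR-145-5p (0.64) and miR-150-5p (0.59). These values describe likeness over libraries that share sequencing and scaling.

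**Figure D4:**
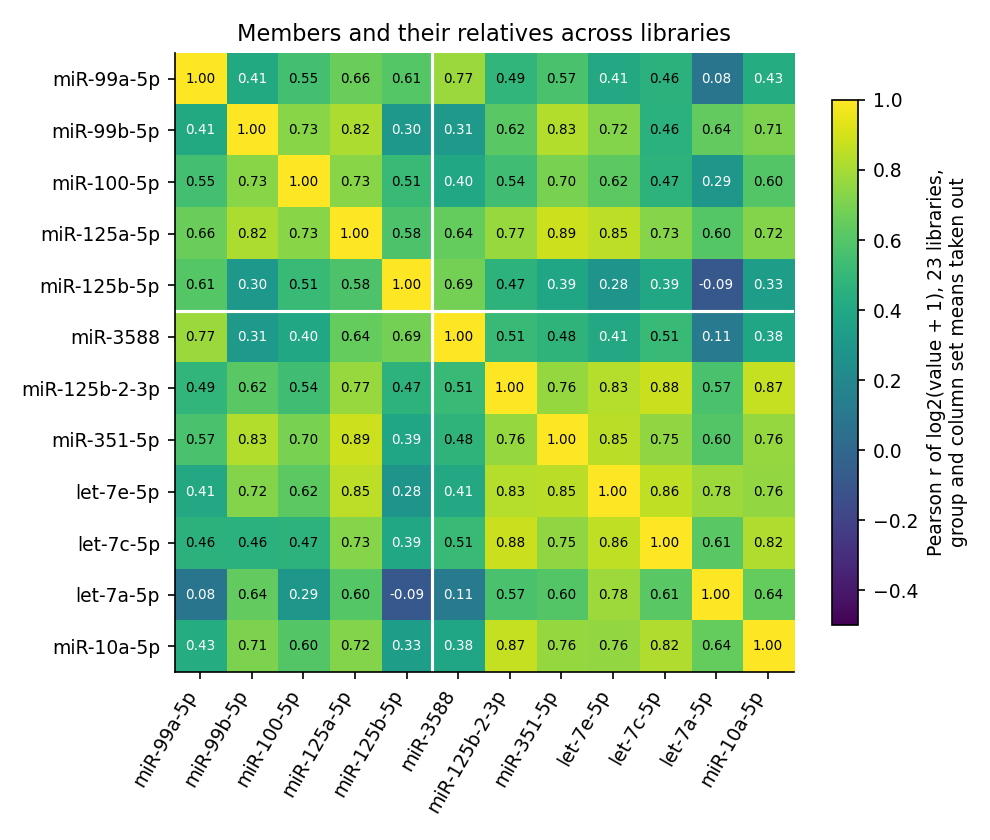
Cells give Pearson r of log2(value + 1) over 23 libraries, after group and column set means were taken out, for the 5 members (above and left of the white lines) and 7 related miRNAs. miR-125a-5p reaches 0.89 with miR-351-5p and 0.85 with let-7e-5p, while miR-125b-5p reaches 0.69 with miR-3588 and -0.09 with let-7a-5p.

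Summed marker lists moved with the summed members in part of the libraries, and some of these sums rest mostly on 1 miRNA. The members' own sum does too, as miR-99b-5p made up 67.7% of it on average. Single members differed: with group and set means taken out, miR-10a-5p had r = 0.71 with miR-99b-5p and 0.72 with miR-125a-5p. Its r was 0.60 with miR-100-5p, 0.43 with miR-99a-5p and 0.33 with miR-125b-5p. In the first set miR-143-3p had a mean of 22456, against 1038 for miR-199a-3p, the next of the muscle and stroma list. miR-146b-5p had 21295, against 917 for miR-146a-5p, the next of the leukocyte list. In the miR-10 list miR-10a-5p had 32620, against 22.8 for miR-10a-3p. The summed members correlated with the summed miR-10 miRNAs at r = 0.89 within the first set and 0.29 within the second. With the muscle and stroma list r was 0.86 and 0.01, with the leukocyte list 0.77 and 0.12, and with the germ cell list -0.72 and -0.26. The muscle and stroma list summed to between 11695 and 79043 units in the first set and between 10454 and 17918 in the second. The leukocyte list summed to between 11920.1 and 47078 in the first set and between 11126 and 18249 in the second. Single leukocyte miRNAs differed between the sets in both directions, and none passed in limma. The log2 values, second minus first, were -0.64 for miR-146b-5p, -0.32 for miR-146a-5p, 0.44 for miR-142-5p and 0.60 for miR-155-5p. With group and set means taken out, miR-10 (r = 0.74, rho = 0.61, permutation adjusted p over 7 lists = 0.00063), muscle and stroma (0.72, rho = 0.49, 0.000817), leukocyte (0.68, rho = 0.56, 0.000817) and germ cell (-0.52, rho = -0.45, 0.0176) passed. Without the 2 farthest libraries these values were 0.55, 0.33, 0.41 and -0.34. The epithelial (0.06), erythroid (-0.13) and endothelial (-0.05) lists did not pass. By group, the muscle and stroma sum had medians of 11568 in air, 16480.0 at 0.4 ppm and 14000.4 at 0.8 ppm, and the leukocyte sum 17174, 14493 and 14501. The epithelial sum had medians of 7619, 9307 and 7399. The part of other cells in the family's levels was not tested.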

How the data were processed

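Small RNA was measured in 23 sperm libraries, isolated with the mirVana kit, prepared with the CleanTag kit and sequenced on a NextSeq 500 for 75 cycles, per the labels. Partek, Bowtie 1.0.0 and the build rn6 are named in the submitters' processing notes, without their roles. Of 4 deposited tables, 1 (the miRNA table) was used. Its values are a normalised read signal that the authors deposited. Of 278 to 337 low values checked per library, 100% were whole multiples of 1 step within 0.1 read, which recovered reads.

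The members and lists were chosen with earlier results of these data known. miRNAs above 0 in at least 8 libraries (407) were fitted with limma 3.58.1 (R 4.3.3) on log2(value + 1), with trend and robust moderation, 3 groups in 1 model and two-sided Benjamini-Hochberg adjustment at 0.05. Fold changes on this scale understate those of low miRNAs. Shares (8) and ratios (9) were compared by two-sided exact permutation, and column sets within groups and correlations by 100000 permutations. The fit was tested on simulated data. Alternatives were other pseudocounts, filters, scalings, quantile normalization, edgeR 4.0.16, DESeq2 1.42.0, depth as covariate, library weights, fits to 2 groups and leaving out each rat, and, added after the data were seen, column sets and the miR-125b-5p and miR-3588 sum. Named miRNAs were the members, measured miRNAs of the fixed lists (at most 4 each), the 3 most like each member, and up to 5 by smallest p that passed.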

Additional observations from a re-analysis of the deposited data

Results flagged for a closer look

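In all, 6 values lay farther from the rest of their group than Dixon's 95% limit allows, among 45 groups of values examined. Chance flags about 1 in 20 of independent groups with a normal spread. The groups here overlap, as the shares sum the members, and the levels were not put on a log scale. Whether the number flagged exceeds chance was therefore not tested. Of the 6 values, 5 come from 2 rats whose libraries both stand in the first set of columns. In 0.8 ppm replicate 7, miR-99b-5p was 3655 (next highest 1697), miR-100-5p 293 (next 150.3) and miR-125a-5p 615 (next 268), and the 5 members held 0.726% of the table (next 0.391%). In 0.4 ppm replicate 5, miR-99b-5p was 3660.15 (next 2007). Without 0.8 ppm replicate 7 the fold change at 0.8 ppm against air was 0.04 for miR-99b-5p, 0.04 for miR-100-5p and -0.05 for miR-125a-5p. The other was miR-125b-5p in air replicate 2, at 47.0 with the next highest air rat at 30.9. Without that rat the miR-125b-5p fold change at 0.8 ppm was 0.71, which did not pass.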

How the results depend on the processing

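No member's fold change passed under any alternative run for the ozone comparisons (smallest adjusted p, by limma, edgeR or DESeq2, 0.246). Over the whole table, the number of miRNAs called was 0 under each of them except library weights, which gave 2 at 0.4 ppm against air (miR-429, 0.88, and miR-3590-5p, -1.02), 3 at 0.8 ppm against air and 3 for the trend (miR-17-2-3p, miR-471-5p and miR-741-3p in both). Without air replicate 2, 2 ratios passed at 0.8 ppm against air; without any other single rat 0 did. No paired analysis was possible because replicate numbers follow the accession order and the rat numbers are not shared between groups. At a median of 36 reads, counting error limits miR-125b-5p most. The causes of the changes below were not tested.

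With the column set as covariate, the fold change at 0.8 ppm against air turned to -0.14 for miR-99b-5p (-0.15 in edgeR) and -0.030 for miR-125a-5p (-0.054 in edgeR), and the trend per ppm to -0.18 (-0.20 in edgeR) and -0.061 (-0.092 in edgeR). In the first set alone, 0.8 ppm against air was -0.30 for miR-99b-5p, -0.24 for miR-100-5p and -0.066 for miR-125a-5p, and the trend -0.49, -0.44 and -0.25, with -0.092 for miR-99a-5p. In the second set alone, 0.8 against 0.4 ppm was -0.062 for miR-125b-5p and 0.0098 for miR-99b-5p. Within sets, the share difference at 0.8 ppm against air was -0.00897 percentage points for miR-99b-5p and -0.00301 for the miR-99 and miR-100 sum, and at 0.8 against 0.4 ppm -3.03e-05 for miR-125b-5p.

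Ratio differences within sets turned at 0.4 ppm against air to -0.13 (miR-125a/miR-125b), -0.11 (miR-99a/miR-125b) and -0.043 (miR-100/miR-125b), and at 0.8 ppm against air to -0.095 (miR-99b/miR-125a), -0.12 (miR-99 and miR-100/miR-125) and -0.030 (miR-99b/let-7e). With miR-3588 added to miR-125b-5p, 0.4 ppm against air gave -0.11 (miR-125a/miR-125b) and -0.12 (miR-99a/miR-125b). As differences of medians, 0.4 ppm against air gave 0.24 (miR-99b/miR-125a), 0.15 (miR-99 and miR-100/miR-125), 0.028 (miR-99a/let-7c) and 0.23 (miR-99b/let-7e), and 0.8 against 0.4 ppm -0.016 (miR-99b/miR-125a) and -0.023 (miR-99 and miR-100/miR-125).

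Leaving out each rat in turn changed the sign of small differences. Fold changes ran from -0.053 to 0.23 for miR-125a-5p at 0.8 ppm against air (trend -0.067 to 0.23) and from -0.30 to 0.099 for miR-99b-5p at 0.8 against 0.4 ppm. Share differences ran from -0.000757 to 0.00814 (miR-125a-5p) and from -0.000822 to 0.0629 (miR-99b-5p) percentage points at 0.8 ppm against air, and from -0.000553 to 0.00111 (miR-125b-5p) at 0.8 against 0.4 ppm. Ratio differences at 0.4 ppm against air ran from -0.13 to 0.14 (miR-125a/miR-125b), -0.0087 to 0.28 (miR-100/miR-125b), -0.092 to 0.087 (miR-99 and miR-100/miR-125), -0.17 to 0.24 (miR-99a/let-7c), -0.11 to 0.12 (miR-99a/miR-125b), -0.14 to 0.16 (miR-99b/let-7e) and -0.13 to 0.066 (miR-99b/miR-125a). At 0.8 ppm against air they ran from -0.020 to 0.17 (miR-99 and miR-100/miR-125) and -0.076 to 0.14 (miR-99a/miR-100), and at 0.8 against 0.4 ppm from -0.0099 to 0.15 (miR-99 and miR-100/miR-125) and -0.18 to 0.066 (miR-100/let-7a).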
